A study of Mus musculus with 18 samples.

Results

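The 5 NF-κB subunit genes Rela, Rel, Relb, Nfkb1 and Nfkb2 and the 5 inhibitor genes Nfkbia, Nfkbie, Nfkbiz, Tnfaip3 and Tnip1 were followed in whole mouse retina before and after damaging light. These 10 genes were taken by their symbols from 23420 gene symbols in the count tables, and all 10 were among the 15196 genes with enough reads to be tested. RNA-seq was performed on retinas of wild-type Balb/cJ mice, an albino strain that is sensitive to light, which were 8 to 10 weeks old and of both sexes per the study's methods. Naïve mice (n = 3) received neither light nor treatment. Vehicle mice (n = 3) were exposed to white light of 15000 lux for 1 h, received DMSO and were analysed 4 days later. TD139 mice (n = 3) received the same light and 15 mg/kg TD139, an inhibitor of the carbohydrate-binding lectin galectin-3. Injections were intraperitoneal and daily and began 1 day before the light. No naïve mice were given DMSO or TD139, so that vehicle and naïve mice differed in both light and DMSO injections. No group received TD139 without light, so that an effect of TD139 on undamaged retina cannot be read. The study describes the samples of each group as biological triplicates.

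NF-κB is a family of dimeric transcription factors that are held in the cytoplasm of resting cells by IκB proteins. In the canonical branch, cytokine and Toll-like receptors activate the IKK complex, IκB is degraded, and dimers of RelA or c-Rel with p50 enter the nucleus. In the non-canonical branch, receptors such as the lymphotoxin β receptor lead to processing of the Nfkb2 product p100 to p52, which pairs with RelB. Several of the inhibitors are themselves induced by NF-κB and close a feedback loop, among them IκBα (Nfkbia), IκBε (Nfkbie) and the ubiquitin-editing enzyme A20 (Tnfaip3). In the retina, microglia, Müller glia and photoreceptors are among the cells in which the pathway has been studied.

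Short stretches of promoter are shown for the genes whose levels differed between groups and for Nfkbia, the textbook feedback gene, because κB-like letters before a start site are a feature outside the read counts. The letters are not independent of the choice of genes, since several of these genes are known to be induced by NF-κB. RefSeq promoter windows (GRCm38.p6) were matched for 7 of the 10 genes and were searched over the 250 bases before each annotated start, on both strands, for GGGANNTTCC and for the looser GGGNNNTTCC, which holds the former. Capitals mark the match, written 5′ to 3′ on the strand of the gene.
Nfkb2, chr19:46305695-46305724, plus strand: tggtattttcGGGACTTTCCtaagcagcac
Nfkb2, chr19:46305449-46305478, plus strand: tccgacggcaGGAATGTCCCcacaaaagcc
Nfkbia, chr12:55492657-55492686, minus strand: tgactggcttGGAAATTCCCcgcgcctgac
Nfkbie, chr17:45555584-45555613, plus strand: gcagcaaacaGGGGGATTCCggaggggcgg
Rel, chr11:23771041-23771070, minus strand: gtaagcagcgGGAAATCCCCccccctcccc
Tnfaip3, chr10:19015411-19015432, minus strand: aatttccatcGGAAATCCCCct
The first 3 hold the stricter string and the other 3 only the looser one. The stricter string was found in 2 of the 7 genes (Nfkb2 and Nfkbia), against 1.36% of the 27025 genes with a window, and the looser string in 6 of the 7 (these and Nfkbie, Rel, Tnfaip3 and Tnip1), against 5.31%. Rela had a window and no match. Genes with several annotated starts, among them Nfkb2 and Tnfaip3, had more windows and so more chances of a match. By GENCODE M21, the stretches of Nfkbia, Nfkbie and Rel lie before the gene. The Tnfaip3 stretch and the second of Nfkb2 lie in introns, the latter also within an exon of the antisense transcript AC114539.1, and the first of Nfkb2 in a 5′ untranslated exon, since both genes have several annotated starts. A match of letters is a description and not evidence of binding, which was not measured here.

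The count tables held 26171887 to 30201517 reads on genes per mouse, summed over 2 sequencing runs. Rod markers were abundant in each naïve mouse (summed level 68400 to 78500 for 8 genes, in counts per 1000000 reads, CPM), as the label retina implies. The 6 lens genes summed to 6930 CPM in vehicle mouse 2 and to 0.418 to 282 CPM in the other 8 mice. Fold changes of all genes were related to transcript length, with Spearman's rho of 0.50 for TD139 against vehicle and 0.61 for TD139 against naïve over 14287 genes, but -0.10 for vehicle against naïve. Reads outside annotated genes were 21.3% to 22.8% of assigned and unassigned reads in TD139 mice, against 19.1% to 19.9% in naïve and 16.5% to 19.4% in vehicle mice. For the 10 genes, calls and signs that differ after a correction for length and GC content are given beside the results they touch, and for the other lists the counts called.

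In naïve retina, Tnfaip3 had by far the most reads of the 10 genes. Per kilobase of transcript, its level was 66.7 ± 13.7 CPM (SD, n = 3), followed by Rela at 17.8 ± 0.441, Nfkbia at 13.8 ± 2.57, Tnip1 at 13.5 ± 1.58 and Nfkb1 at 5.58 ± 0.26. Below these lay Nfkbiz at 2.91 ± 0.424, Nfkbie at 2.09 ± 0.791, Relb at 1.65 ± 0.286 and Nfkb2 at 0.974 ± 0.0483 CPM per kilobase. Rel was the lowest at 0.0688 ± 0.0235 CPM per kilobase, from 11 to 19 reads per mouse. The ranges of the 3 mice overlapped between the neighbours Nfkbia and Tnip1, Nfkbiz and Nfkbie, and Nfkbie and Relb, so that their order is not resolved, and the other neighbours did not overlap. The steady-state mRNA of the non-canonical pair Relb and Nfkb2 was thus low in undamaged retina next to that of Rela and Nfkb1.

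**Figure D1:**
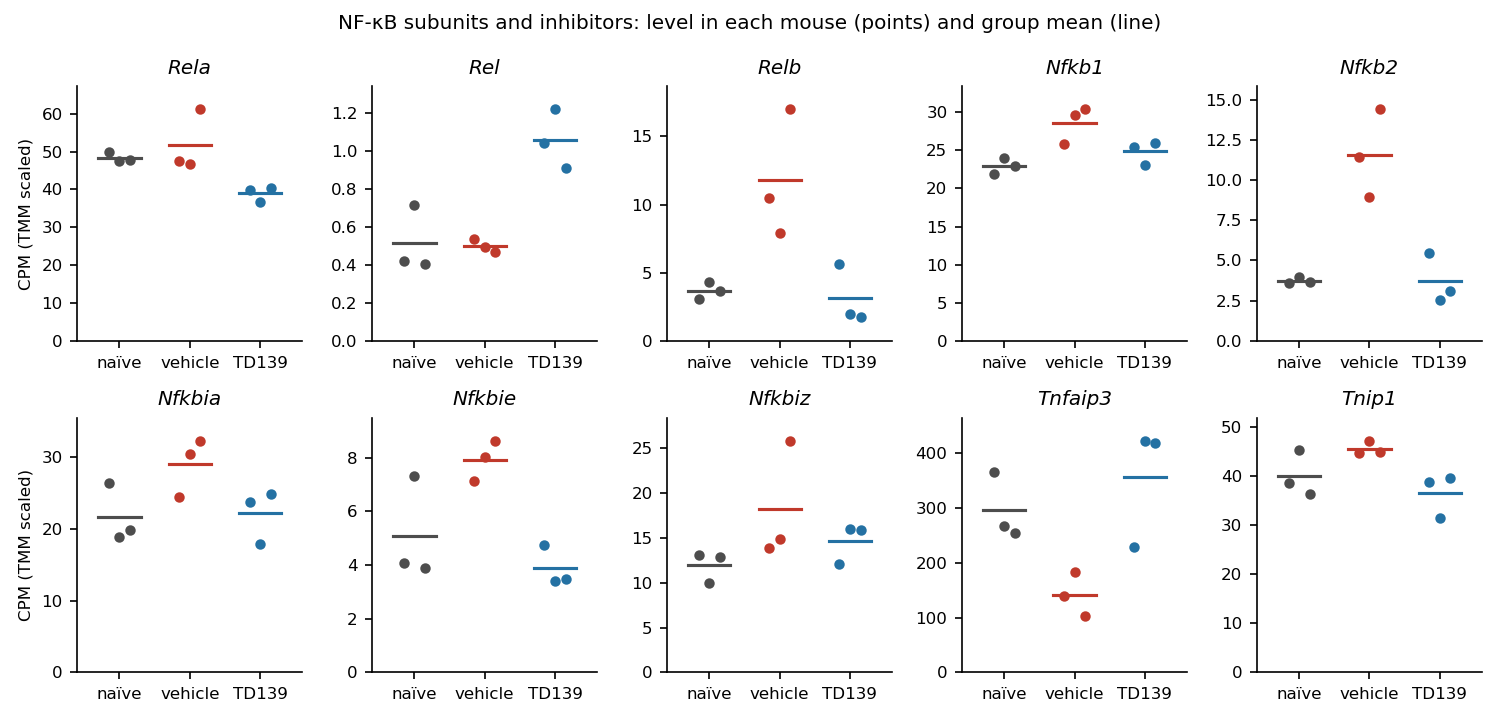
Level of each of the 10 genes in each mouse in TMM-scaled CPM (y axes starting at 0 and scaled per gene), with points for the 3 mice of a group and a line for their mean. Relb and Nfkb2 were highest in the 3 vehicle mice, Tnfaip3 was lowest in them (102 to 183 CPM), and Rel was highest in the 3 TD139 mice.

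After light damage and DMSO, the 2 subunit genes of the non-canonical branch were higher. Nfkb2 rose 3.09-fold and Relb rose 3.23-fold in vehicle compared to naïve mice, and the other 8 genes did not pass the test. The 2 genes called (edgeR quasi-likelihood test, Benjamini-Hochberg adjusted p under 0.05) stand beside a background of 7.80% of all tested genes called in either direction, 4.91% called higher and 2.89% called lower. The log2 fold change was above 0 in 8 of the 10 genes, with a median of 0.37 next to 0.00 over all tested genes. The 3 vehicle mice lay outside the range of the naïve mice for 5 genes, 4 higher and 1 lower, against 33.3% of all tested genes. No gene reached the study's cut-off of a log2 fold change of at least 2 or at most -2. Of all tested genes, 1.24% were both called and past this cut-off. The 2 calls need every naïve mouse and vehicle mouse 3: without any one of these 4 mice, 0 of the 10 genes passed the edgeR test, with 3 to 6 at an unadjusted p under 0.05. The loss was shared by all tested genes, of which 91, 1 and 217 were called without naïve mouse 1, 2 or 3 and 84 without vehicle mouse 3, in place of 1185. With all mice, DESeq2 called 4 and limma voom called 5 of the 10 genes, beside 15.9% and 22.5% of all tested genes. After the length and GC correction, the values of Nfkbia, Tnip1 and Rela, none called in either fit, went from 0.42 to 0.24, from 0.18 to 0.05 and from 0.10 to -0.05. Other genes of the non-canonical branch, picked after their values were seen, did not all rise. Without the correction, Ltbr was called higher by edgeR, while Map3k14 (log2 fold change 0.13), Chuk (-0.35), Traf3 (-0.10) and Ltb (0.11) were not called.

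In TD139 compared to vehicle mice, Nfkb2, Relb, Nfkbie and Rela fell and Tnfaip3 and Rel rose. The background of this comparison was high: 33.4% of all tested genes were called, 17.2% higher and 16.2% lower, beside the 6 of 10 genes here. The median log2 fold change was -0.35 next to -0.02 over all tested genes, and the mice of both groups did not overlap for 7 of the 10 genes, against 51.5% of all tested genes. No gene reached a log2 fold change of at least 2 or at most -2, while 1.65% of all tested genes were both called and past this cut-off. After correction for length and GC content, 3 of the 6 calls remained (Nfkb2, Relb and Tnfaip3), beside 21.7% of all tested genes. Without vehicle mouse 3 the count was 3, without TD139 mouse 2 it was 1 (Nfkb2) and without TD139 mouse 3 it was 2 (Nfkb2 and Tnfaip3), while the calls over all tested genes went from 5072 to 2526, 1626 and 1917. Both comparisons use the same vehicle mice, so that a high or low value there moves them in opposite directions.

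In TD139 compared to naïve mice, 0 of the 10 genes passed the edgeR test, beside 5.10% of all tested genes. At an unadjusted p under 0.05, 2 genes (Rela and Rel) were counted, beside 29.6% of all tested genes, while limma voom called 3 (Rela, Nfkbie and Nfkbiz), beside 36.0% of all tested genes, and DESeq2 called 0, beside 17.0%. The mice of both groups did not overlap for Rela, which was lower, and Rel, which was higher, against 32.2% of all tested genes. Their median log2 fold change was 0.01. After the length and GC correction, the 10 values lay between -0.21 (Nfkbie) and 0.53 (Rel), with Rela at -0.14.

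**Figure D2:**
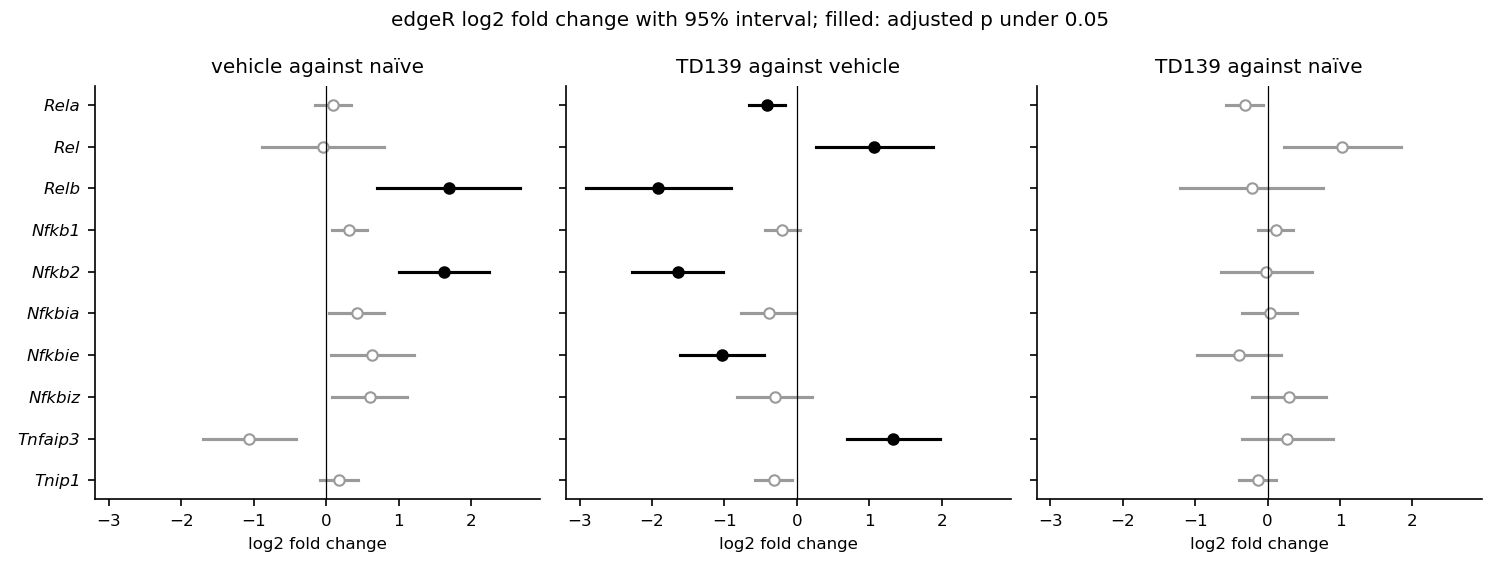
Log2 fold change (x axes) of the 10 genes in the 3 comparisons from the edgeR fit over 9 mice, with lines for the 95% interval and filled points for an adjusted p under 0.05. Nfkb2 and Relb lie near 1.6 to 1.7 in vehicle against naïve mice and at -1.64 and -1.91 in TD139 against vehicle mice, and Tnfaip3 runs the other way.

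Nfkb2 (chromosome 19, 46304320 to 46312385, plus strand of GRCm38, GENCODE M21) encodes p100, the precursor of p52 and itself an IκB-like inhibitor. Its levels were 3.61, 3.96 and 3.67 CPM in the naïve mice, 11.4, 8.94 and 14.4 CPM in the vehicle mice, and 5.49, 2.54 and 3.08 CPM in the TD139 mice. All vehicle mice were above all other mice, and TD139 mouse 1 was the highest of the mice outside the vehicle group. The log2 fold change was 1.63 (SE 0.28, adjusted p = 0.0171, edgeR) in vehicle against naïve and -1.64 (SE 0.28, adjusted p = 0.00568) in TD139 against vehicle mice. The fall in TD139 mice was called in all 9 fits that leave out 1 mouse (-2.04 to -1.43) and after the length and GC correction (-1.51, adjusted p = 0.00864). The rise in vehicle mice was lost without naïve mouse 1, 2 or 3 or vehicle mouse 3, with adjusted p of 0.0559, 0.0704, 0.0501 and 0.063, at log2 fold changes of 1.62, 1.68, 1.62 and 1.44. In TD139 against naïve mice the log2 fold change was -0.02, with a 95% interval of -0.64 to 0.61. The last 299 bases of Nfkb2 (chromosome 19, 46312087 to 46312385) overlap Psd on the other strand, and whether reads were counted by strand is not given in the sources used here. Psd had -0.22 and 0.32 in the same comparisons, with neither called and both opposite in sign to Nfkb2.

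Relb (chromosome 7, 19606217 to 19629438, minus strand) encodes RelB, the partner of p52. Its levels were 3.04, 4.30 and 3.63 CPM in naïve, 10.5, 7.91 and 17.0 CPM in vehicle, and 5.67, 1.95 and 1.78 CPM in TD139 mice. The order of the mice resembled that of Nfkb2, with vehicle mouse 3 on top, all vehicle mice above all others, and TD139 mouse 1 well above TD139 mice 2 and 3. The log2 fold change was 1.69 (SE 0.44, adjusted p = 0.0469, edgeR) in vehicle against naïve and -1.91 (SE 0.45, adjusted p = 0.0123) in TD139 against vehicle mice. The rise lies close to the threshold: it was called in 3 of 9 fits without 1 mouse (adjusted p 0.00374 to 0.134, log2 fold changes 1.33 to 1.91). The call was lost without naïve mouse 1, 2 or 3, vehicle mouse 1 or 3, or TD139 mouse 2. With all mice kept, it was also lost with library size alone (adjusted p = 0.0507, edgeR), without a filter (0.0615), with a replicate block (0.0805) and with flow cell 1 alone (0.0805). The fall was called in 7 of 9, with adjusted p of 0.0591 without TD139 mouse 2 and 0.0515 without TD139 mouse 3, and after the length and GC correction (-1.53, adjusted p = 0.032). In TD139 against naïve mice, the log2 fold change was -0.22 with an interval of -1.21 to 0.77.

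Rela (chromosome 19, 5637483 to 5648130, plus strand) encodes RelA (p65), the main activating subunit of the canonical branch. It held steady levels of 49.8, 47.6 and 47.8 CPM in naïve mice and had 47.5, 46.7 and 61.2 CPM in vehicle mice. In TD139 mice, the levels were 39.8, 36.7 and 40.3 CPM, below all other mice. Rela had a log2 fold change of 0.10 (interval -0.15 to 0.35) in vehicle against naïve and -0.41 (SE 0.11, adjusted p = 0.0196, edgeR) in TD139 against vehicle mice. The latter depends on the processing, since it was -0.09 with an adjusted p of 0.561 after the length and GC correction. It was also lost without vehicle mouse 3 (-0.28, adjusted p = 0.0729), TD139 mouse 2 (-0.37, 0.0853) or TD139 mouse 3 (-0.44, 0.0587). In TD139 against naïve mice the log2 fold change was -0.31 (adjusted p = 0.101).

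Rel (chromosome 11, 23736847 to 23770970, minus strand) encodes c-Rel, a subunit best known from lymphoid and myeloid cells. Only 11, 19 and 11 reads were counted in naïve, 15, 14 and 14 in vehicle, and 28, 35 and 23 in TD139 mice, the lowest counts of the 10 genes. The TD139 mice were above all others. Between TD139 and vehicle mice, the log2 fold change was 1.07 (SE 0.37, adjusted p = 0.0434, edgeR). This call was lost with DESeq2 (adjusted p = 0.0711), in 8 of 9 fits without 1 mouse (all but the one without naïve mouse 3, up to 0.154) and after the length and GC correction (0.58, adjusted p = 0.28). In edgeR it was also lost with library size alone (adjusted p = 0.0635), without a filter (0.0727), with a replicate block (0.0608) and with flow cell 2 alone (0.182). The Rel transcript, at 7466 bases, is the longest of the 10. In vehicle against naïve mice the log2 fold change was -0.04, with an interval of -0.88 to 0.80.

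Nfkb1 (chromosome 3, 135584655 to 135691547, minus strand) encodes p105, the precursor of p50. It had 21.9, 24.0 and 23.0 CPM in naïve, 25.8, 29.7 and 30.4 CPM in vehicle, and 25.5, 23.1 and 26.0 CPM in TD139 mice. The vehicle mice lay above the naïve mice and overlapped the TD139 mice. The log2 fold change of 0.32 in vehicle against naïve mice did not pass the test (adjusted p = 0.0914, edgeR), although DESeq2 called it (0.0472), and that of TD139 against vehicle mice was -0.20 (adjusted p = 0.164).

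The subunits were also set against each other within each mouse, which needs no scaling between libraries. For every 100 Rela reads, 6.10, 9.03 and 7.59 Relb reads were counted in naïve, 22.1, 17.0 and 27.7 in vehicle, and 14.3, 5.31 and 4.42 in TD139 mice. For every 100 Nfkb1 reads, 16.5, 16.5 and 15.9 Nfkb2 reads were counted in naïve, 44.1, 30.1 and 47.6 in vehicle, and 21.5, 11.0 and 11.9 in TD139 mice. Both ratios were higher in each vehicle mouse than in any mouse of the other groups, and in both TD139 mouse 1 was above all naïve mice while TD139 mice 2 and 3 were below them. Other ratios did not share this. Rel per 100 Rela reads, from few Rel reads, averaged 1.07 in naïve, 0.986 in vehicle and 2.73 in TD139 mice. Nfkbie per 100 Nfkbia reads was 38.6 in naïve mouse 2, above the 26.3 to 29.2 of the vehicle mice. The transcripts in a ratio differ in length and read share, so that only its change between mice can be read. That change can still carry the relation of fold changes to transcript length, for which the ratios were not corrected. These ratios are from the same reads as the tests above and were not tested again.

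**Figure D3:**
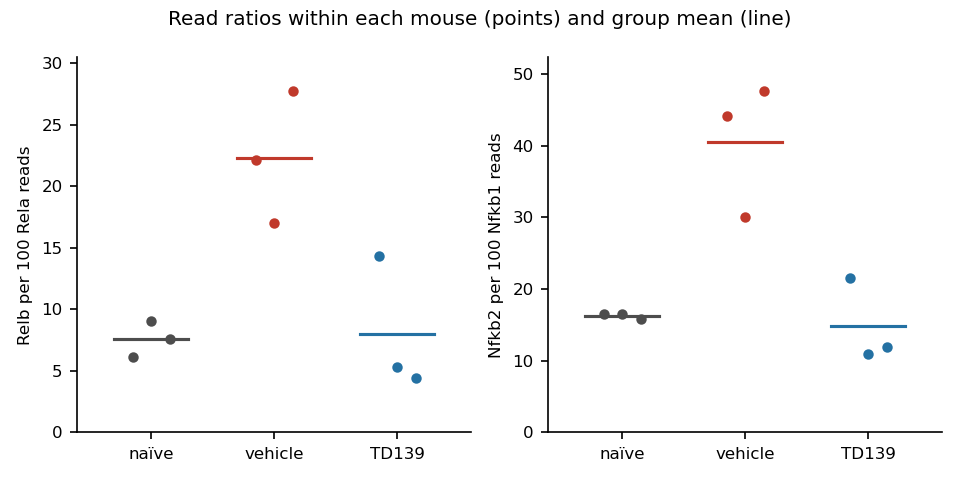
Reads of Relb per 100 reads of Rela and reads of Nfkb2 per 100 reads of Nfkb1 within each mouse (y axes starting at 0), with points for mice 1, 2 and 3 from left to right and a line for the group mean. The vehicle mice lie at 17.0 to 27.7 and 30.1 to 47.6, above the naïve and TD139 mice in both panels.

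Tnfaip3 (chromosome 10, 19000910 to 19015657, minus strand) encodes A20, which removes activating ubiquitin chains upstream of IKK. Its levels were 365, 266 and 254 CPM in naïve, 139, 183 and 102 CPM in vehicle, and 228, 422 and 417 CPM in TD139 mice. The vehicle mice were below all mice of the other groups, the opposite order to that of Nfkb2 and Relb. The log2 fold change in vehicle against naïve mice was -1.06 (SE 0.28) and just missed the threshold (adjusted p = 0.0536, edgeR), whereas DESeq2 (0.000719), limma voom (0.0162) and the length and GC correction (-1.13, adjusted p = 0.0479) called it. Its adjusted p was also under the threshold without vehicle mouse 2 (-1.29, 0.0392) or TD139 mouse 1 (-1.05, 0.0141). It rose 2.52-fold in TD139 against vehicle mice (log2 fold change 1.33, SE 0.28, adjusted p = 0.0107, edgeR), a call that held in 8 of 9 fits without 1 mouse, with an adjusted p of 0.0512 without TD139 mouse 2. After the length and GC correction, the rise was 1.23 (adjusted p = 0.0369). In TD139 against naïve mice, the log2 fold change was 0.27, with an interval of -0.36 to 0.90.

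Tnip1 (chromosome 11, 54910785 to 54962917, minus strand) encodes ABIN1, a ubiquitin-binding partner of A20. It had 38.7, 45.4 and 36.4 CPM in naïve, 44.8, 47.3 and 44.9 CPM in vehicle, and 38.8, 31.5 and 39.6 CPM in TD139 mice. The TD139 mice lay below the vehicle mice, but the log2 fold change of -0.32 did not pass the test (adjusted p = 0.0568, edgeR). It passed with DESeq2 (0.042), with limma voom (0.0456) and without naïve mouse 3 (0.0464), and was -0.06 (adjusted p = 0.694) after the length and GC correction. Its value was opposite in sign to that of Tnfaip3 in the same comparison.

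Of the 3 IκB genes, 1, Nfkbie, passed the edgeR test, in TD139 against vehicle mice. Nfkbia (chromosome 12, 55489410 to 55492647, minus strand), the gene of IκBα, had 26.4, 18.9 and 19.8 CPM in naïve, 24.5, 30.5 and 32.3 CPM in vehicle, and 23.8, 17.9 and 24.9 CPM in TD139 mice. The groups overlapped, and neither 0.42 in vehicle against naïve (adjusted p = 0.14, edgeR) nor -0.39 in TD139 against vehicle mice (0.0986) passed, the latter turning to 0.06 after the length and GC correction. Nfkbie (chromosome 17, 45555703 to 45563169, plus strand), the gene of IκBε, had 4.07, 7.31 and 3.89 CPM in naïve, 7.15, 8.02 and 8.64 CPM in vehicle, and 4.75, 3.41 and 3.48 CPM in TD139 mice. Naïve mouse 2 reached into the vehicle range, and the 3 TD139 mice were all below the vehicle mice. Nfkbie fell in TD139 against vehicle mice (-1.03, SE 0.26, adjusted p = 0.0142), and this was lost after the length and GC correction (-0.70, adjusted p = 0.0518), without vehicle mouse 3 (0.0508), without TD139 mouse 2 (0.0667) and without TD139 mouse 3 (0.063). Nfkbiz (chromosome 16, 55811375 to 55838899, minus strand) encodes the nuclear protein IκBζ, which acts as a coactivator of a subset of targets. It had 13.1, 9.95 and 12.9 CPM in naïve, 13.9, 14.8 and 25.8 CPM in vehicle, and 12.1, 16.0 and 15.9 CPM in TD139 mice. Vehicle mouse 3 alone stood high, and no comparison passed the edgeR test (0.60 with adjusted p = 0.127 in vehicle against naïve, -0.30 with 0.327 in TD139 against vehicle mice). Without vehicle mouse 3, these were 0.26 and 0.03. limma voom called Nfkbiz in vehicle against naïve mice (adjusted p = 0.0297), and likewise Nfkbia (0.0282).

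The retina holds many cell types, and in bulk RNA a change in the number of cells of a type and a change in RNA per cell cannot be told apart. The 14 microglia markers summed to 70.0 to 74.4 CPM in naïve, 301 to 571 CPM in vehicle and 50.7 to 186 CPM in TD139 mice. Of these, 7 of 14 were called higher in vehicle against naïve (4.91% of all tested genes) and 10 of 14 lower in TD139 against vehicle mice (16.2% of all tested genes), and none was at 0 in a group. The mice ranked alike in this sum and in Nfkb2 and Relb within the vehicle group (mouse 3, then 1, then 2), and TD139 mouse 1 was the highest TD139 mouse in all 3 measures. Naïve mouse 1, however, had the highest microglia sum of its group (74.4 CPM) and the lowest Nfkb2 and Relb (3.61 and 3.04 CPM). TD139 mouse 2 was above TD139 mouse 3 in the microglia sum and below it in Nfkb2. The 7 gliosis markers summed to 115 to 224 CPM in naïve, 430 to 1180 CPM in vehicle and 108 to 216 CPM in TD139 mice, with 3 called higher and 6 called lower in the 2 comparisons and none at 0. The gliosis sum had the same order of the vehicle mice (1180, 536 and 430 CPM in mice 3, 1 and 2). In this sum, TD139 mouse 1 was the highest and naïve mouse 1 the lowest of its group. The 8 Müller glia markers summed to 4160 to 4990, 6290 to 6780 and 4430 to 5790 CPM, with 5 called higher and 2 called lower and none at 0. Their part in the changes of Nfkb2, Relb and Nfkbie was not tested.

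The 8 rod markers moved with Tnfaip3. They summed to 68400 to 78500 CPM in naïve, 39700 to 55800 CPM in vehicle and 56800 to 70600 CPM in TD139 mice, with 5 called lower in vehicle against naïve (2.89% of all tested genes) and 4 called higher in TD139 against vehicle mice (17.2% of all tested genes), and none at 0. Within each of the 3 groups, the mouse with the highest Tnfaip3 level also had the highest rod sum. Their part in the change of Tnfaip3 was not tested. Markers of monocytes and neutrophils summed to at most 3.57 CPM in any mouse, with Ccr2 and Cxcr2 at 0 in all naïve and Plac8 and Cxcr2 at 0 in all TD139 mice. Lymphocyte markers summed to at most 2.62 CPM, with Cd3e and Ms4a1 at 0 in all mice, and blood markers to at most 0.989 CPM. The 7 endothelial markers summed to 228 to 300 CPM in naïve, 373 to 545 CPM in vehicle and 272 to 528 CPM in TD139 mice, with 0 called by edgeR in the first comparison (2 at an unadjusted p under 0.05, 0 by DESeq2 and 1 by limma voom) and Cldn5 called lower in the second. The 7 pigment epithelium markers summed to 102 to 243, 208 to 435 and 120 to 175 CPM, with 0 of 6 called by edgeR, DESeq2 or limma voom or at an unadjusted p under 0.05 in the first and 2 of 6 tested (Rpe65 and Ttr) called lower in the second comparison, and the part of these cells was not tested. Without vehicle mouse 2, the endothelial and pigment epithelium calls were lost (0 of 7 and 0 of 6 by edgeR, with 1 and 2 at an unadjusted p under 0.05). Without vehicle mouse 2, the mouse with the most lens transcripts, 3 of the 10 genes were called in vehicle against naïve and 5 in TD139 against vehicle mice, beside 6.35% and 24.5% of all tested genes.

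**Figure D4:**
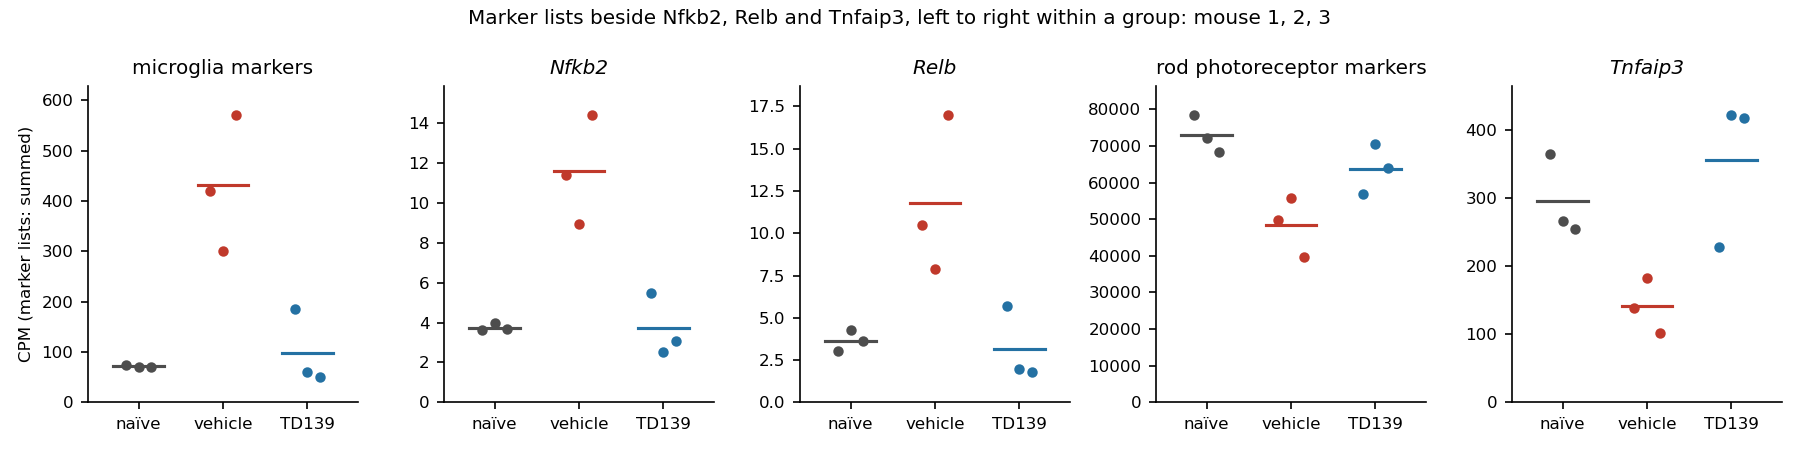
Summed level of the microglia and rod marker lists beside the levels of Nfkb2, Relb and Tnfaip3 (CPM, y axes starting at 0), with points for mice 1, 2 and 3 from left to right in each group and a line for the mean. The microglia sum, Nfkb2 and Relb share the order of the vehicle mice, and the rod sum and Tnfaip3 are both lowest in vehicle mouse 3. Among the naïve mice, the microglia sum is highest in mouse 1, where Nfkb2 and Relb are lowest.

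Upstream of the subunits, 6 of 12 ligand genes could be tested, and Tnf, Il1a, Il1b, Tnfsf11, Tnfsf14 and Cd40lg were at 0 to 9 reads per mouse. Beside the counts of this and the following lists stand the shares of all tested genes called, which were 4.91% higher and 2.89% lower in vehicle against naïve mice, and 17.2% higher and 16.2% lower in TD139 against vehicle mice. Il33, the gene of an alarmin that Müller glia make, rose in vehicle against naïve mice (0.90, adjusted p = 0.0456, edgeR) and fell in TD139 against vehicle mice (-0.75, 0.0332). Il18 had 0.52 in the former, not called, and fell by 0.60 on the log2 scale in the latter (0.0378), while Tnfsf12, the gene of TWEAK, had -0.62 and 0.34, neither called. The list's median was 0.25 and -0.59. After the length and GC correction, Il33 and Tnfsf12 were called in the first comparison, 1 higher and 1 lower. In the second, the falls of Il33 and Il18 were no longer called, and Tnfsf12 alone was called, higher. Without vehicle mouse 2, 0 of the 6 were called by edgeR in the first (2 at an unadjusted p under 0.05) and 1 (Il33) in the second comparison.

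Of 20 receptor and adaptor genes, 5 rose and 0 fell in vehicle against naïve mice (median 0.70). These were Tnfrsf1a, the main TNF receptor (2.17, adjusted p = 0.0302, edgeR), Tlr2 (2.80, 0.032), Ltbr, the lymphotoxin β receptor that feeds the non-canonical branch (1.25, 0.0242), Tlr3 (1.09, 0.0494) and Myd88, the adaptor of most Toll-like receptors (0.85, 0.0447). After TD139 treatment, 7 fell relative to vehicle (Ltbr, Tnfrsf1a, Myd88, Tnfrsf12a, Tlr2, Tradd and Irak4) and 2 rose (Traf6 and Traf3), with a median of -0.54. The 3 members with most reads were Traf3 (-0.10 and 0.34, the latter called with adjusted p = 0.0482), Irak1 (0.40 and -0.19, neither called) and Traf2 (0.00 and -0.16, neither called). With the length and GC correction, 6 rose and 0 fell in vehicle against naïve mice. In TD139 against vehicle mice, 6 then fell and 1 rose, and Traf2 turned to 0.05, not called. Without vehicle mouse 2, 2 rose in vehicle against naïve and 5 fell and 0 rose in TD139 against vehicle mice.

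The genes of the IKK complex, its kinases and the linear ubiquitin ligase were not called in vehicle against naïve mice by edgeR (0 of 16, median -0.06), with 3 at an unadjusted p under 0.05, 1 called by DESeq2 and 2 by limma voom. The 3 with most reads were Rbck1 (-0.04), Tab2 (-0.06) and Map3k7, the gene of TAK1 (-0.03). In TD139 against vehicle mice, 5 rose (Tab3, Chuk, Ikbkg, Ikbkb and Malt1) and 2 fell (Ikbke and Tab1), with a median of 0.24, and Rbck1, Tab2 and Map3k7 had -0.17, 0.27 and 0.24, none called. With the length and GC correction, Ikbke and Tbk1 were called in vehicle against naïve mice, 1 higher and 1 lower. In TD139 against vehicle mice, 4 then rose and 1 fell (median 0.11), while Rbck1 and Map3k7 turned to 0.22 and -0.08, neither called. Without vehicle mouse 2, 3 rose and 2 fell in TD139 against vehicle mice.

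Among 10 other IκB proteins and nuclear modulators, 0 were called by edgeR in vehicle against naïve mice, with 2 at an unadjusted p under 0.05 and 1 called by each of DESeq2 and limma voom. Commd1, Nkiras1 and Nkiras2, the 3 with most reads, had log2 fold changes of -0.10, 0.00 and -0.17. Bcl3, whose value here was singled out after it was seen, had 4.31 (adjusted p = 0.0651, edgeR), with all vehicle mice above the naïve mice. In TD139 against vehicle mice, Bcl3, an atypical IκB that binds p50 and p52 dimers, fell (-3.73, adjusted p = 0.0386), as did Nfkbib (-0.41, 0.029) and Nfkbil1 (-0.36, 0.021), while Commd1, Nkiras1 and Nkiras2 had -0.30, -0.18 and -0.06, none called. With the length and GC correction, Bcl3 and Nkiras2 were called in vehicle against naïve mice, 1 higher and 1 lower. In TD139 against vehicle mice, the falls of Bcl3, Nfkbib and Nfkbil1 were then not called, and Nfkbib and Nfkbil1 changed sign to 0.04 and 0.20. Nkiras2 turned to 0.37 and was called (adjusted p = 0.0426, edgeR). Nfkbid and Nkiras1 were also called there, so that 2 genes were called higher and 1 lower. Of the 8 tested deubiquitinases and partners of A20, 0 were called by edgeR in vehicle against naïve mice, with 2 at an unadjusted p under 0.05 and 0 by DESeq2 or limma voom, and 4 rose in TD139 against vehicle mice. These were Itch (0.66, adjusted p = 0.0118, edgeR), Otud7b (0.45, 0.0407), Rnf11 (0.40, 0.0361) and Cyld (0.34, 0.0288), and none of the 4 was called after the length and GC correction, under which Cyld was -0.15. With that correction, Tnip2 was called higher in TD139 against vehicle mice, and Otud7b and Tnip2 were called lower in vehicle against naïve mice. Without the correction, Otud7b and Rnf11 had -0.35 and -0.01 in vehicle against naïve mice and Tax1bp1, the third by reads, -0.06 and -0.01 in the 2 comparisons, none of them called. Without vehicle mouse 2, 1 IκB gene fell (Bcl3) and 1 deubiquitinase gene rose (Itch).

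Of 24 tested textbook NF-κB target genes, 11 rose and 0 fell in vehicle against naïve mice, with a median of 1.70. Some passed the count filter only through the vehicle mice, which favours a rise there and a fall in TD139 mice. Ccl2, Cxcl1 and Bcl2a1b, for example, averaged 18.4, 17.6 and 10.6 reads over all mice, at log2 fold changes of 8.71, 8.56 and 5.90. The genes that rose were Plau, Ccl2, Vcam1, Cxcl1, Csf1, Bcl2a1b, Cd44, Irf1, Lcn2, Icam1 and Gadd45b, which encode chemokines (Ccl2, Cxcl1), adhesion molecules (Vcam1, Icam1, Cd44), a growth factor (Csf1), the protease urokinase (Plau), a transcription factor (Irf1), an acute-phase protein (Lcn2), a survival protein (Bcl2a1b) and a stress-response protein (Gadd45b). Relative to vehicle, these 11 and Bcl2l1 (-0.47, adjusted p = 0.00568, edgeR) fell, Xiap rose (1.16, 0.00825) in TD139 mice, and the median was -1.56. Sod2, Bcl2l1 and Xiap, the 3 with most reads, had -0.05, 0.22 and -0.37 in vehicle against naïve mice, none called, and Sod2 had 0.03 in TD139 against vehicle mice, which turned to -0.38 (adjusted p = 0.0228) with the length and GC correction. Several of these genes are also expressed by microglia or reactive glia, whose markers moved with them, and their part was not tested. Ccl4, Cxcl2, Cxcl10, Il6, Sele and Nos2 had too few reads to be tested. With the length and GC correction, 14 rose and 1 fell in the first and 2 rose and 13 fell in the second comparison, and without vehicle mouse 2 the counts were 13 and 0, and 1 and 14, of 26 tested.

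In TD139 against naïve mice, 2 of the 84 tested genes of these lists were called, Il1rap (0.78, adjusted p = 0.0486, edgeR) and Nfkbil1 (-0.40, 0.0484), beside 5.10% of all tested genes. Without vehicle mouse 2, neither was called by edgeR, and 0 of all tested genes were. Of 20 receptor and adaptor genes, 0 passed (1 at an unadjusted p under 0.05), and of 10 IκB and modulator genes, 0 (4 at an unadjusted p under 0.05). With all mice, DESeq2 called 1 and limma voom 5 of the receptor and adaptor genes, and 2 and 3 of the IκB and modulator genes. With the length and GC correction, 0 of all tested genes were called by edgeR in that comparison, with 1976 at an unadjusted p under 0.05, while without the correction DESeq2 called 2586 and limma voom 5478.

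**Figure D5:**
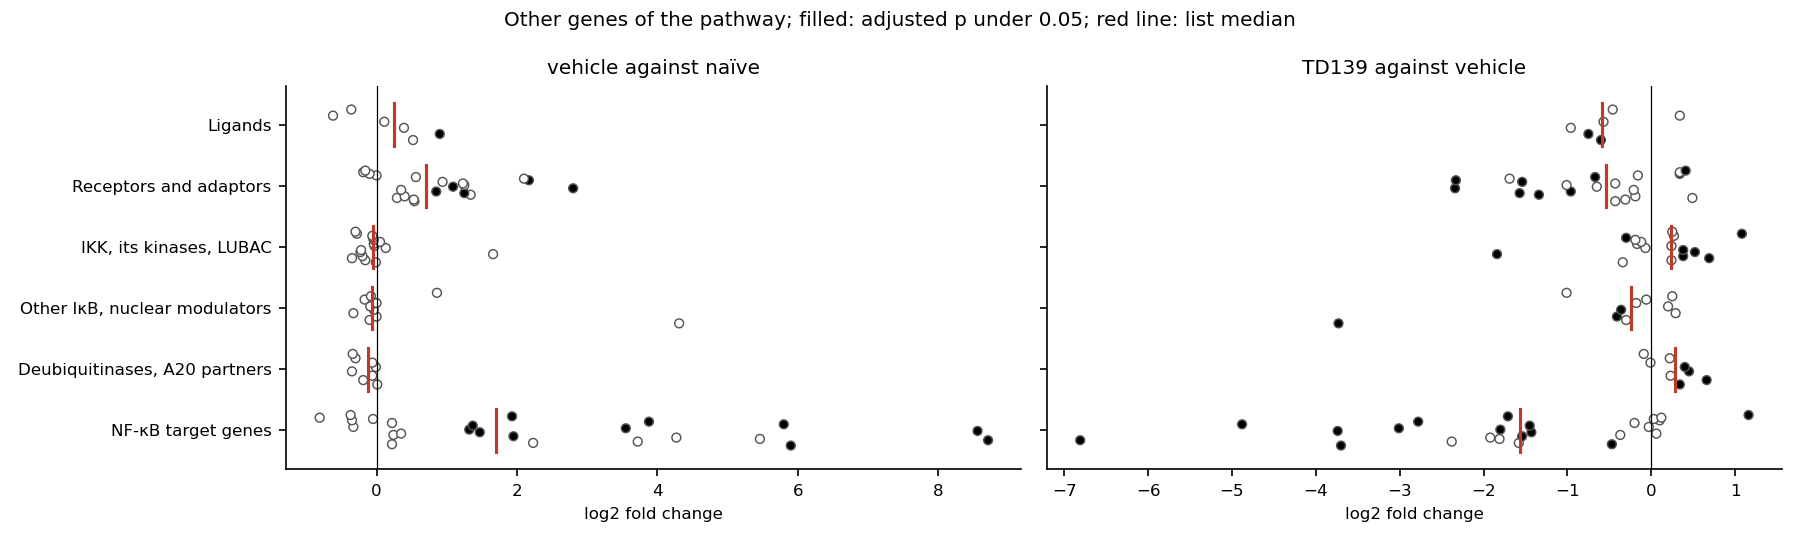
Log2 fold changes (x axes) of the tested genes of the 6 pathway lists in vehicle against naïve and TD139 against vehicle mice, with a point per gene, filled where the adjusted p was under 0.05, and a red line for the list's median. The medians of the target genes lie at 1.70 and -1.56, those of the receptors and adaptors at 0.70 and -0.54, and those of the IKK list at -0.06 and 0.24.

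The genes whose pattern over the 9 mice was nearest to each called subunit or inhibitor were found by the root mean square difference of mean-centred log2 CPM, among genes with at least 50 reads on average. Nearest to Nfkb2 were Pdpn (0.082), the gene of podoplanin, Ctsd (0.093), the gene of the lysosomal protease cathepsin D, and BC064078 (0.118), beside a standard deviation of Nfkb2 itself of 0.831. Nearest to Relb were Tgm2 (0.137), Pdlim4 (0.163) and Cyba (0.189), the last the gene of a subunit of the phagocyte NADPH oxidase, beside 1.013. For Tnfaip3, these were 2610034M16Rik (0.139), Rabgef1 (0.148) and E130310I04Rik (0.156), beside 0.666. For Nfkbie, they were Tpcn2 (0.153), Athl1 (0.157) and Gng5 (0.163), beside 0.509. Rela was nearest to Oxa1l (0.052), Wdr74 (0.058) and Rabggta (0.061), beside 0.204, and Rel to 5330426P16Rik (0.202), Rab9b (0.207) and Xpo1 (0.209), beside 0.506. The distances of Rel are large next to its own spread, and with so few groups many genes follow the same 3 levels.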

How the data were processed

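The authors sequenced stranded mRNA libraries of 9 retinas on 2 flow cells and deposited 18 tables of raw counts per gene symbol. The submitters' processing notes name mm10, and the annotation and strand setting are not given in the sources used here. Both runs of a mouse were summed. The members were picked by gene symbol and the rule used no measured value, but members and lists were chosen with earlier results of these data known. edgeR 4.0.16 in R 4.3.3 (TMM, filterByExpr, robust quasi-likelihood, all 9 mice in 1 fit without covariates) was used, with Benjamini-Hochberg adjustment over 15196 genes and two-sided p-values. Errors of log2 fold changes are the fold change divided by the root of F. CPM are TMM-scaled, and transcript lengths are from GENCODE M21, which held 93.02% of the symbols. A count of 3, the limit of a count of 0, was 0.0993 to 0.115 CPM and covers counting error only. The fitting step was tested on simulated data. Named from each pathway list were the 3 genes with most reads and, where at most 5 were called in a comparison, those called. Names of called genes given without values were added after their values were seen. For each called member the 3 nearest genes were named. Alternatives were DESeq2 1.42.0, limma 3.58.1 voom with quality weights, RLE or library size scaling, other filters, fits of 2 groups, a replicate block, each flow cell alone, a length and GC spline offset, and each mouse left out. With 3 mice against 3, an exact permutation test cannot go below 0.1 and was not used. No columns of the authors' own comparisons were used.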

Additional observations from a re-analysis of the deposited data

How the results depend on the processing

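The count of the 10 genes called in vehicle against naïve mice was 2, and it was 4 with DESeq2, 5 with limma voom, and 1 without a filter, with a replicate block or with flow cell 1 alone. In TD139 against vehicle mice it was 6, and 3 with the length and GC correction, and 5 to 7 under the other settings that keep all mice. In TD139 against naïve mice it was 0, and 3 with limma voom. Leaving out 1 mouse gave 0 to 3, 1 to 7 and 0 to 0 genes. The replicate numbers do not pair the mice, since the correlations of same-numbered mice were -0.26 to 0.28, and the replicate block gave 1, 5 and 0 called genes. Over all genes it moved the calls from 1185 to 900, 5072 to 4772 and 775 to 0. Of all called genes, 63.0% were higher in vehicle against naïve mice, but 77.6% with library size alone and 31.7% with the length and GC correction, and 51.6% were higher in TD139 against vehicle mice, but 39.0% and 64.5%. With these settings the median of all genes was 0.09 and -0.10 in the first and -0.10 and 0.07 in the second comparison. Over the members, 288 of 323 values under settings that keep all mice stayed on their side of the threshold with their sign, and 16 gained and 12 lost the call. With all mice kept, the changes of sign were of values within 0.06 of 0 or came with the length and GC correction, and the cause was not tested. For vehicle against naïve mice, library size alone gave 0.05 for Rel and Sod2, 0.03 for Tab2, 0.06 for Rbck1 and Map3k7, 0.09 for Nkiras1, 0.08 for Rnf11 and 0.04 for Tax1bp1. limma voom gave -0.01 for Traf2, 0.01 for Map3k7, 0.07 for Rnf11, 0.04 for Tax1bp1 and 0.00 for Sod2. Flow cell 1 alone gave -0.08 for Traf2 and 0.03 for Nkiras1, and flow cell 2 alone 0.01 for Rel, Map3k7 and Rnf11. Nkiras1 was 0.00 without a filter or with at least 1 CPM in 3 mice and 0.01 with only 2 groups, where Rnf11 was 0.00. The length and GC correction gave -0.05 for Rela and -0.12 for Traf2. For TD139 against vehicle mice, it gave 0.06 for Nfkbia, 0.05 for Traf2, 0.22 for Rbck1, -0.08 for Map3k7, 0.37 for Nkiras2 (called), 0.20 for Nfkbil1, 0.04 for Nfkbib, -0.15 for Cyld and -0.38 for Sod2 (called). Tax1bp1 was 0.01 with limma voom or flow cell 2 alone, Nkiras2 0.00 with flow cell 2 alone and Sod2 -0.06 with library size alone. For TD139 against naïve mice, Nfkb2 was 0.01 with library size alone, 0.03 with flow cell 1 alone and 0.00 with the length and GC correction. Without 1 mouse, values that changed sign in vehicle against naïve mice ranged from -0.04 to 0.17 for Rela, -0.18 to 0.29 for Rel, -0.02 to 0.03 for Traf2, -0.11 to 0.04 for Tab2, -0.09 to 0.03 for Rbck1, -0.08 to 0.05 for Map3k7, -0.26 to 0.09 for Commd1, -0.05 to 0.07 for Nkiras1, -0.07 to 0.09 for Rnf11 and -0.15 to 0.14 for Tax1bp1. In TD139 against vehicle mice they ranged from -0.47 to 0.03 for Nfkbiz, -0.10 to 0.06 for Tax1bp1 and 0.00 to 0.07 for Sod2, and in TD139 against naïve mice from -0.96 to 0.07 for Relb, -0.41 to 0.20 for Nfkb2 and -0.05 to 0.21 for Nfkbia. Depth was lowest for Rel, at 11 to 35 reads per mouse.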
